A study of Saccharomyces cerevisiae with 12 samples.

Results

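The genes described here encode the proteins of the cytosolic ribosome of the budding yeast Saccharomyces cerevisiae. They were taken by name: a gene was a member if its symbol was RPL, RPS or RPP followed by a number and, for some, the letter A or B, and if it was read by a probe set annotated to a single gene. Genes of chromosome I were left out by this rule. It found 128 of the 5449 S. cerevisiae genes on the array. Of these, 127 are ribosomal protein genes, 75 of the large subunit and 52 of the small subunit. The remaining gene, RPP1, carries a matching symbol but encodes a subunit of nuclear RNase P, an enzyme that processes transfer RNA, and is placed in neither subunit.

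A cytosolic ribosome joins a small subunit, which reads the messenger RNA, to a large subunit, which forms the peptide bond and holds the exit tunnel for the growing chain. In budding yeast most ribosomal proteins are encoded by a pair of genes, A and B, left over from a genome duplication, whose proteins are identical or nearly so. These genes are among the most highly transcribed in growing cells, and their transcription is coupled to nutrient supply through Rap1, Fhl1, Ifh1 and Sfp1 under the control of the TOR and protein kinase A pathways. Excess ribosomal protein is degraded or, for several members, limits the splicing or stability of its own transcript.

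RNA was measured on 12 one-colour Affymetrix arrays, each with 1 culture. The groups were a parental strain (n = 2 cultures), an evolved strain (n = 2) and homozygotes from the evolved strain (n = 8, numbered strains with 1 culture each). All cultures, parental ones included, were grown in 4% YPX medium, started at an optical density of 0.1, kept at 35 °C and 200 rpm and collected at 25 h. The labels give no genotype, ploidy or construction of the parental or evolved strain, and the design text singles out homozygotes against parental strain in connection with improved use of xylose.

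Values are deposited intensities on a linear scale, relative within an array, so fewer cells and less messenger RNA per cell cannot be told apart. Changes are differences of mean log2 intensity, and a gene was called when its Benjamini-Hochberg adjusted p from limma, over all 5352 genes tested, was under 0.05. The 2 parental arrays differed by a median of 0.22 in log2 over all genes. This was more than any pair of homozygotes (0.0799 to 0.176), and the evolved pair differed least (0.0583), so it is uncertain whether these arrays vary as separate cultures. P-values measure the spread between these samples and rest mostly on the homozygotes. Haploid and mating markers summed to 1083 to 1157 on parental arrays, 1063 to 1134 on evolved arrays and 989 to 1204 on homozygote arrays, and sporulation markers to 1323 to 1552, 1460 to 1501 and 1375 to 1723. The sums overlapped between all groups, no marker read 0, and the part of these genes in the results below was not tested. In homozygotes against parental arrays 2 of 14 haploid and mating markers rose and 1 fell, and 2 of 16 sporulation markers rose and 1 fell (3 and 0, and 4 and 0, after quantile normalisation). In the evolved strain 1 sporulation marker rose (DIT1) and 1 fell (SPO11), and no haploid or mating marker was called. Of all genes 13.2% rose and 18.0% fell in homozygotes, and 3.20% and 5.21% in the evolved strain.

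All 128 members passed the filter on low signals, which asks for more than the background, 18.7 to 19.6 intensity units by array, on at least 2 arrays. The median member ranked at percentile 96.6 of mean signal, and 110 of the 128 lay above the 90th percentile. The brightest member on each array read between 8567 and 9038 units, against 12088 for the brightest value of any probe set. RPL41A was the exception at the low end, chosen here after its values were seen. It is read by a shared probe set at 20.1 and 22.3 units on the parental arrays, 22.5 and 22.5 on the evolved arrays and 19.8 (lowest), 22.4 (median) and 24.7 (highest) on the homozygotes, close to background throughout. Symbols of the R64 gene table that follow the same pattern but have no single-gene probe set here were not analysed.

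In homozygotes against parental arrays, 20 of 128 members rose (15.6%) and 6 fell (4.69%), beside 13.2% and 18.0% of all genes tested. In either direction 20.3% of members and 31.2% of all genes were called. This balance depends on how arrays are scaled: 28 members rose and 3 fell after median centring, but 8 rose and 20 fell after quantile normalisation. Of all genes, 839 rose and 834 fell after median centring, and 756 rose and 817 fell after quantile normalisation. With array weights estimated per group, which gave less weight to the parental arrays, no member was called, against 325 of all genes. The changes were small. The median member changed by 0.05 in log2 and the median gene by -0.04, and 1 member moved by more than 0.5, against 709 of all genes. In data simulated from these arrays, the fit for this comparison recovered 4.5% of genes changed by 0.25, 67.5% at 0.5 and 98.0% at 1. These genes were drawn from all genes tested, whose median SE here was 0.11, against 0.05 for members. The share recovered among members alone was not tested.

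**Figure D1:**
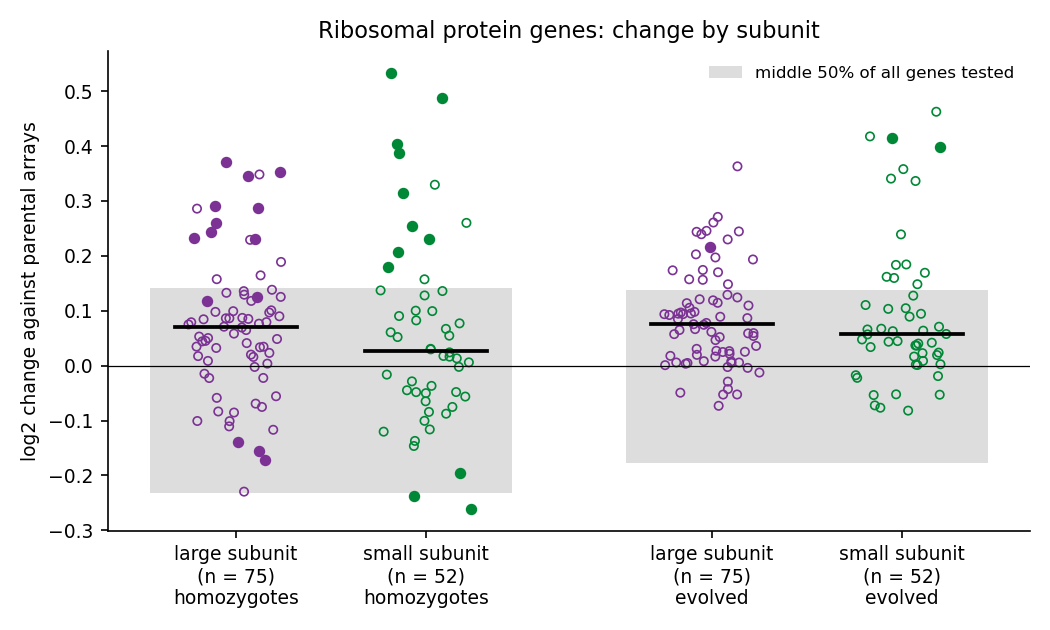
Log2 change against the parental arrays for each of 75 large-subunit and 52 small-subunit genes, in homozygotes (left) and in the evolved strain (right). Each point is a gene, filled where limma's adjusted p was under 0.05, bars are medians, and grey boxes span the middle 50% of all genes tested; with the deposited scaling most points lie above 0 in both comparisons, while quantile normalisation turns the balance of calls in homozygotes to 8 higher and 20 lower.

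Among small-subunit genes 9 of 52 rose (17.3%) and 3 fell (5.77%), beside 13.2% and 18.0% of all genes tested. RPS1A encodes a protein of the platform, near the messenger RNA exit. Its signal was 1581 and 1682 on parental arrays, 2222 and 2135 on evolved arrays and 1895, 2276 and 2757 on homozygotes, without overlap with the parental arrays. The rise was 0.49 ± 0.12 (adjusted p = 0.00697). Its partner RPS1B rose by 0.23 ± 0.07 (adjusted p = 0.0220).

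RPS10A and RPS10B encode Rps10, a protein of the small-subunit head at the messenger RNA entry. For RPS10A the parental arrays gave 1395 and 1580 units, the evolved arrays 2102 and 1992, and the homozygotes 1632, 1864 and 2506. For RPS10B they gave 1362 and 1419, 1826 and 1687, and 1580, 1819 and 2097. In neither gene did a homozygote fall to the level of a parental array, and the rises were 0.40 ± 0.14 (adjusted p = 0.0381) and 0.39 ± 0.10 (adjusted p = 0.0116). RPS9A, whose protein lies at the messenger RNA entry and contributes to decoding accuracy, went from 873 and 903 on parental arrays to 1177 and 1100 on evolved arrays and 968, 1106 and 1261 on homozygotes. Its groups did not overlap either, with a rise of 0.31 ± 0.10 (adjusted p = 0.0351). The calls of RPS10A, RPS10B and RPS9A did not hold in all the alternatives described below. Without parental array 1 their changes were 0.31, 0.36 and 0.29, and without parental array 2 they were 0.49, 0.42 and 0.34.

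Further small-subunit rises, named after their values were seen, were RPS28B (0.26), RPS25A (0.21) and RPS29B (0.18). RPS28B is known for a protein that shortens the life of its own messenger RNA through the decapping activator Edc3.

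Among the 3 falls of the small subunit were B copies whose A partner did not fall. RPS14B encodes a platform protein, and Rps14 is known to bind the RPS14B transcript and repress its splicing. It read 2777 and 2526 on parental arrays, 2624 and 2745 on evolved arrays and 1977, 2240 and 2485 on homozygotes, so that the homozygotes lay below all 4 other arrays. The fall was -0.26 ± 0.09 in log2 (adjusted p = 0.0401). RPS18B, for a head protein that touches the large subunit, read 4838 and 4798, then 4480 and 4659, then 3675, 4182 and 4324. Here the evolved arrays sat between the parental arrays and the homozygotes, and the fall in homozygotes was -0.24 ± 0.06 (adjusted p = 0.00741).

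Among large-subunit genes 11 of 75 rose (14.7%) and 3 fell (4.0%), beside 13.2% and 18.0% of all genes tested. For RPL15B, RPL9A, RPL9B and RPL39 among the rises, the higher parental array overlapped with the homozygotes. RPL15B read 2127 and 1297 on parental arrays, 1863 and 1882 on evolved arrays and 2007, 2141 and 2300 on homozygotes. Its change of 0.37 ± 0.12 (adjusted p = 0.0372) came from parental array 2: without that array it was 0.01 (adjusted p = 0.91), and 0.73 in the absence of parental array 1.

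RPL9A and RPL9B encode Rpl9, which lies near the base of the stalk. RPL9A read 3373 and 2586 on parental arrays, 3656 and 3474 on evolved arrays and 3090, 3792 and 4678 on homozygotes. RPL9B read 2089 and 1820, then 2374 and 2203, then 2068, 2533 and 2935. Both overlapped with the higher parental array, and their changes of 0.35 ± 0.13 (adjusted p = 0.0467) and 0.35 ± 0.12 (adjusted p = 0.0374) became 0.16 (adjusted p = 0.443) and 0.25 (adjusted p = 0.238) without parental array 2.

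The stalk is the arm of the large subunit that recruits elongation factors, built from RPP0 at its base and the acidic proteins of RPP1A, RPP1B, RPP2A and RPP2B. Of these 5 genes RPP2B alone was called. It read 5338 and 5194 on parental arrays, 6122 and 6113 on evolved arrays and 5876, 6090 and 6637 on homozygotes. All 10 evolved and homozygote arrays were above both parental arrays, and the rise was 0.23 ± 0.04 (adjusted p = 0.00152). RPP0 changed by 0.06 ± 0.03 (adjusted p = 0.103), from 7044 and 7447 to a homozygote median of 7578. It was called higher after median centring (adjusted p = 0.0372) and without parental array 2 (0.10, adjusted p = 0.0296), and its change was 0.02 without parental array 1.

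RPL3, which reaches towards the peptidyl transferase centre and has no paralogue, rose by 0.13 ± 0.03 (adjusted p = 0.0120). Its parental arrays gave 6809 and 7189, its evolved arrays 7360 and 7094 and its homozygotes 7393, 7675 and 7893, and in this gene the homozygotes but not the evolved arrays cleared the parental ones. RPL25, at the tunnel exit where the signal recognition particle docks, did not pass the test: it changed by -0.07 ± 0.04 (adjusted p = 0.192), with parental arrays at 6281 and 6503 and homozygotes at 5751, 6099 and 6461. It was called lower after quantile normalisation (-0.13, adjusted p = 0.0158), and its change was -0.04 without parental array 2. The other large-subunit rises, apart from RPL40B and RPL11A below, were named after their values were seen: RPL14B (0.29 ± 0.06, adjusted p = 0.00315), RPL39 (0.26), RPL38 (0.23) and RPL43B (0.12). RPL14B was 2710 and 2919 on parental arrays, 3398 and 3243 on evolved arrays and 3211, 3461 and 3711 on homozygotes, with no overlap with the parental arrays.

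The 3 large-subunit falls were in RPL11B, RPL17B and RPL16A. RPL11B encodes a copy of Rpl11, which joins the ribosome with Rpl5 and the 5S ribosomal RNA. It read 5262 and 4998 on parental arrays, 4959 and 4791 on evolved arrays and 4249, 4522 and 4876 on homozygotes, a fall of -0.17 ± 0.05 (adjusted p = 0.0174) with no overlap with the parental arrays. RPL17B, for a protein that lines the exit tunnel, fell by 0.16 on the log2 scale (SE 0.05, adjusted p = 0.0393), from 3929 and 4017 to 3218, 3601 and 3735, while the evolved arrays stayed at 4016 and 3917. RPL16A fell by 0.14 (SE 0.05, adjusted p = 0.0355), from 5254 and 5376 to 4506, 4896 and 5034, with evolved arrays at 5149 and 5123.

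RPS31, RPL40A and RPL40B encode ribosomal proteins fused to ubiquitin, and so also supply ubiquitin. Of these RPL40B rose, by 0.29 ± 0.08 (adjusted p = 0.0156), from 3202 and 3505 on parental arrays to 4108 and 3840 on evolved arrays and 3651, 4192 and 4621 on homozygotes. RPL40A changed by 0.10 ± 0.04 (adjusted p = 0.0812) and RPS31 by 0.10 ± 0.04 (adjusted p = 0.0507), and both were called higher after median centring (adjusted p = 0.0416 and 0.0267). RPS31 read 8232 and 7530 on parental arrays and 8120, 8496 and 8705 on homozygotes, which overlap. Its change was 0.16 without parental array 1 (adjusted p = 0.0101) and 0.04 without parental array 2 (adjusted p = 0.529).

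RPL22A and RPL22B, whose protein limits the splicing of its own transcripts, were not called. RPL22A changed by -0.08 ± 0.05 (adjusted p = 0.249) and RPL22B by -0.12 ± 0.10 (adjusted p = 0.411). RPL22B had parental arrays at 2363 and 1870 on either side of the homozygote median of 1939. RPP1, the RNase P subunit, read 588 and 568 on parental arrays, 643 and 629 on evolved arrays and 430, 558 and 587 on homozygotes, and its change of -0.11 ± 0.11 was not called (adjusted p = 0.438).

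Of the 26 calls 4 held, those of RPL14B, RPP2B and RPS18B among them, when any array was left out in turn and in every other alternative run except array weights. The other 22 were lost in at least 1 of them. Without parental array 1, 8 of the 26 were called, and without parental array 2, 12. A limma fit without the trend in variance kept 13, quantile normalisation kept 14 and a fit to the compared groups alone kept 16.

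**Figure D2:**
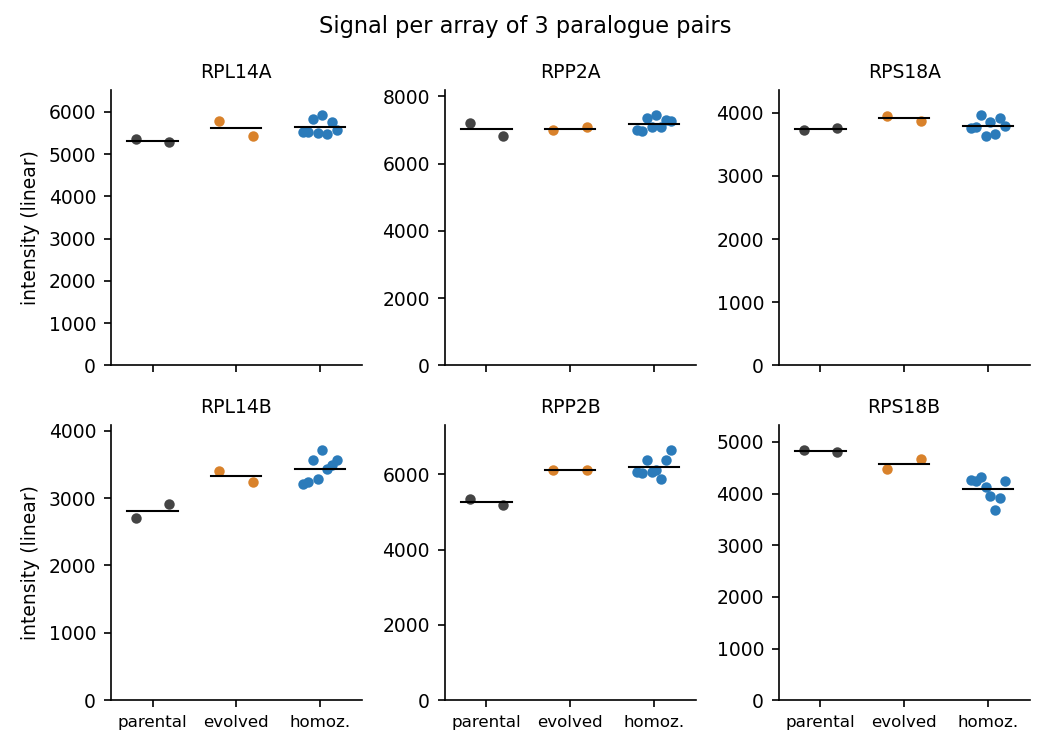
Intensity (linear, from 0) on each array for 3 paralogue pairs, with the A copy above and the B copy below; points are arrays and bars are group means. The pairs shown are those of RPL14B, RPP2B and RPS18B, whose calls held in all alternatives but array weights, chosen after their values were seen. In each the B copy separates parental arrays from homozygotes, and so does RPL14A among the A copies, while RPP2A and RPS18A overlap; none of the 3 A copies was called.

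By plain separation of arrays, 29 members (22.7%) were higher on all 8 homozygotes than on both parental arrays and 13 (10.2%) were lower, beside 12.5% and 18.7% of all genes tested. After median centring the counts were 45 and 6 (35.2% and 4.69%), beside 14.8% and 16.2% of all genes under that scaling. After quantile normalisation they were 11 and 26 (8.59% and 20.3%), beside 13.2% and 16.2% of all genes. The large subunit had 17 higher and 5 lower, and the small subunit 12 and 8. Size of change went with brightness. By limma calls, 13 of the 63 dimmer ribosomal protein genes rose and 4 fell, with a median absolute change of 0.13. Of the 64 brighter ones, above about 4698 units, 7 rose and 2 fell, with a median of 0.06. By the same calls 13.2% of all genes rose and 18.0% fell. How far signal near the top of the scale limits the measured changes was not tested.

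By class, the median change was 0.07 for large-subunit genes and 0.03 for small-subunit genes. The mean log2 of the large subunit minus that of the small subunit was -0.10 and -0.15 on the parental arrays, -0.13 on both evolved arrays and between -0.12 and -0.09 on the homozygotes. Homozygotes 5 and 6 lay above the higher parental array, and the others lay between the parental arrays. Homozygotes differed from parental arrays by 0.01 in this quantity. Leaving out parental array 1 gave 0.04, and leaving out parental array 2 turned it to -0.01.

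**Figure D3:**
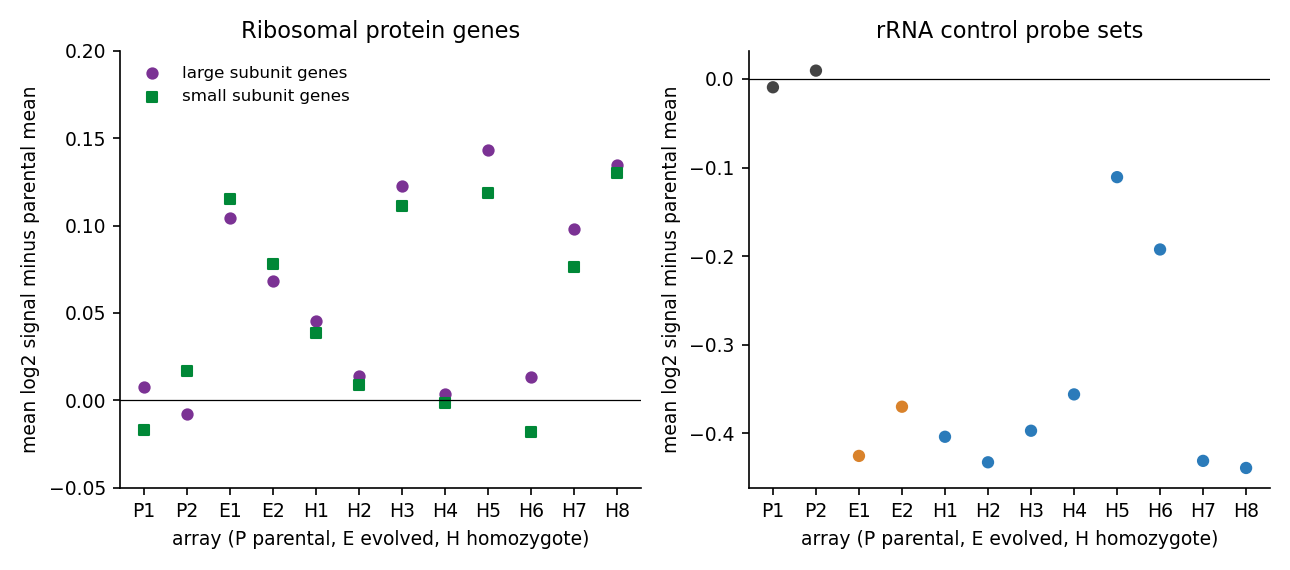
Mean log2 signal minus the parental mean for each array: 75 large-subunit and 52 small-subunit genes on the left, 17 ribosomal RNA control probe sets on the right. Among homozygotes, numbers 3, 5 and 8 are highest in both subunits and 2, 4 and 6 are near the parental arrays as deposited, and the ribosomal RNA probe sets are lower on all evolved and homozygote arrays.

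The mean over all members was 11.96 in log2 on both parental arrays, 12.07 and 12.03 on the evolved arrays and 11.96, 12.03 and 12.09 (lowest, median and highest) on the homozygotes. With the deposited scaling homozygotes 4 and 6 lay within the range of the parental pair, and homozygotes 3, 5 and 8 were about 0.1 above it. After subtraction of the median of all genes on the same array, the parental arrays stood at 2.899 and 2.936. The homozygotes then ranged from 2.939 (homozygote 2) to 3.120 (homozygote 5), all above both parental arrays, with homozygote 4 at 2.948 and homozygote 6 at 2.992. The 17 ribosomal RNA control probe sets moved the other way, with mean log2 of 11.99 and 12.01 on the parental arrays, 11.57 and 11.63 on the evolved arrays and 11.56, 11.60 and 11.89 on the homozygotes, differences of -0.40 in the evolved strain and -0.35 in homozygotes. Homozygote 5, with the highest member mean, had the highest ribosomal RNA signal of the homozygotes (11.89). Next came homozygote 6 (11.81), whose member mean was the lowest with the deposited scaling. The part of this signal in the results was not tested.

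The array measured both copies of 50 A and B pairs, and the copies of a pair often moved by different amounts. Because probe sets differ in brightness for reasons other than transcript level, what is compared is the change of A minus B in log2, not the level. In 26 of the 50 pairs (52.0%) A minus B was above both parental arrays in all 8 homozygotes or below both in all 8. In 11 of them A gained on B and in 15 B gained on A. Of all single genes 31.2% separated in this way. That is a share for signals and not for differences between probe sets. The share for A minus B cannot be judged against it, and other gene pairs were not examined. The median absolute change of A minus B was 0.17, and 12 pairs exceeded 0.25. The median change was 0.07 for A copies and 0.06 for B copies. With the deposited scaling 6 of 50 A copies were called higher and 2 lower, against 11 and 4 of 50 B copies. The calls over all genes were 13.2% higher and 18.0% lower. Quantile normalisation gave 3 and 9 for A copies and 5 and 9 for B copies, beside 756 and 817 of all 5352 genes. Median centring gave 11 and 0 against 12 and 3, beside 839 and 834 of all genes.

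By calls, both copies rose in 3 pairs, RPS1, RPS10 and RPL9, and in no pair did both fall. In 13 pairs 1 copy was called, the A copy in 3 and the B copy in 10, and in 32 pairs neither was. In 2 pairs, RPL11 among them, the copies were called in opposite directions. RPL11A minus RPL11B was -0.22 and -0.28 on parental arrays, 0.02 and -0.06 on evolved arrays and from 0.00 to 0.44 on homozygotes. RPL11A rose by 0.24 ± 0.08 (adjusted p = 0.0389) while RPL11B fell. When all probe sets of a gene were averaged, RPL11B and RPS10A were not called.

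RPS14A minus RPS14B had a shift of 0.34 in homozygotes (parental 1.16 and 1.28, homozygotes 1.38 to 1.72) and 0.03 in the evolved strain. The A copy changed by 0.08 ± 0.03 (adjusted p = 0.0794, and 0.0326 after median centring), less than the fall of RPS14B. RPL23A minus RPL23B shifted by -0.33 (parental -0.55 and -0.28, homozygotes -0.94 to -0.57), with -0.07 in the evolved strain. The homozygote shift was -0.46 when parental array 1 was left out and -0.20 when parental array 2 was. Neither copy of this protein of the subunit interface was called (RPL23A -0.23, adjusted p = 0.0640, and RPL23B 0.10, adjusted p = 0.271).

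RPL15A minus RPL15B shifted by -0.32 with overlap, its parental arrays at 1.75 and 2.38, and the shift was 0.00 without parental array 2. RPL4A minus RPL4B shifted by -0.30, from 4.03 and 4.02 on parental arrays to 3.31 to 3.94 on homozygotes, and by -0.33 in the evolved strain. RPL4A, for a protein of the exit tunnel, is read here only by a shared probe set, and RPL4B changed by 0.35 ± 0.16 (adjusted p = 0.109). At the other end, the copies of RPL36 (A minus B 0.01), RPL9 (0.01) and RPS27 (-0.01) shifted together, with overlapping groups.

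**Figure D4:**
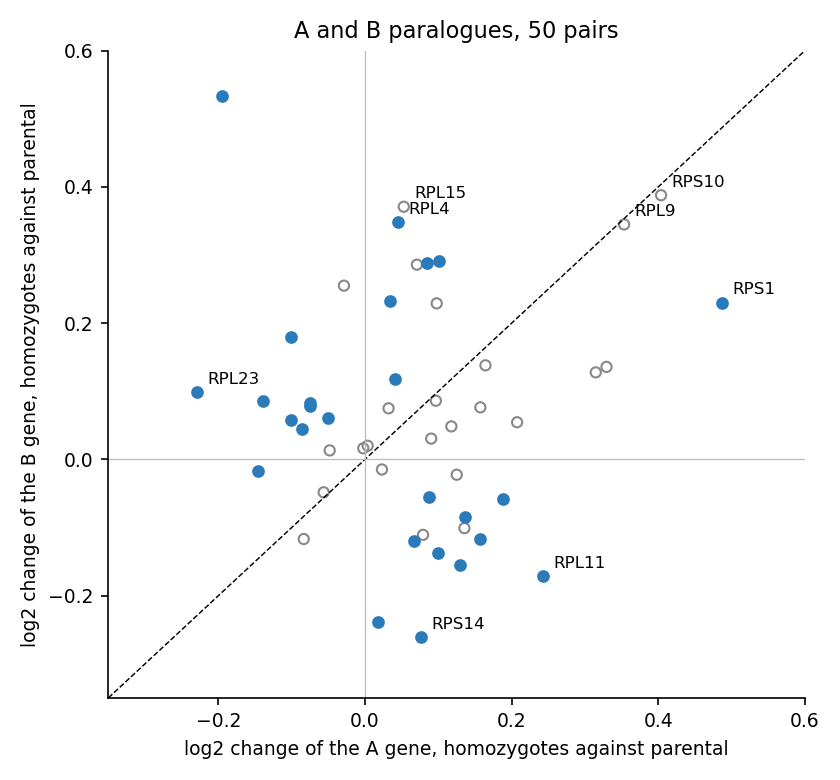
Log2 change in homozygotes against parental arrays of the A copy (x axis) and the B copy (y axis) of 50 pairs; the dashed line marks equal change, and filled points are the 26 pairs whose A minus B separated all homozygotes from both parental arrays. RPL11 lies at the lower right, RPS1, RPS10 and RPL9 have both copies higher with the deposited scaling, and quantile normalisation changes the A minus B shift of RPL11 from 0.41 to 0.39.

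Of the 27 members without a measured partner, 18 have no letter in their symbol. Of these 18 genes 3 rose (RPL3, RPL38 and RPL39) and none fell, and of the 9 A or B symbols whose partner was not measured none was called, with changes from 0.00 to 0.26. Of the 100 members in pairs 17 rose and 6 fell, and the background over all genes is 13.2% higher and 18.0% lower.

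Which probe set reads a gene bears on these values, since near-identical copies can share signal. The values above come from a gene-specific probe set for 119 members and from a probe set marked as shared with related sequences for 9 (RPL1B, RPL4A, RPL7A, RPL35A, RPL41A, RPL42B, RPS4B, RPS6B and RPS30A), whose changes are uncertain in origin. For 20 genes the array holds both kinds, and 19 of them are described here. In these the specific probe sets changed by -0.24 to 0.40 in homozygotes, with a median absolute change of 0.14, and the shared ones by -0.11 to 0.24, with a median of 0.07. For RPL14B the specific probe set changed by 0.29 and the shared one by 0.06. The corresponding values were -0.24 and 0.01 for RPS18B, -0.17 and 0.06 for RPL11B, 0.40 and 0.12 for RPS10A, and 0.39 and 0.24 for RPS10B. RPS29B, the other called gene among the 19, gave 0.18 and 0.15. Among genes that were not called the shared probe set changed by a larger amount in RPL18B, RPL20B, RPL8A, RPS17B, RPS24A and RPS26A, named after their values were seen. Of these, RPL18B (0.09 specific, -0.11 shared) and RPS17B (-0.12 specific, 0.15 shared) changed in opposite directions in the specific and the shared probe set.

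**Figure D5:**
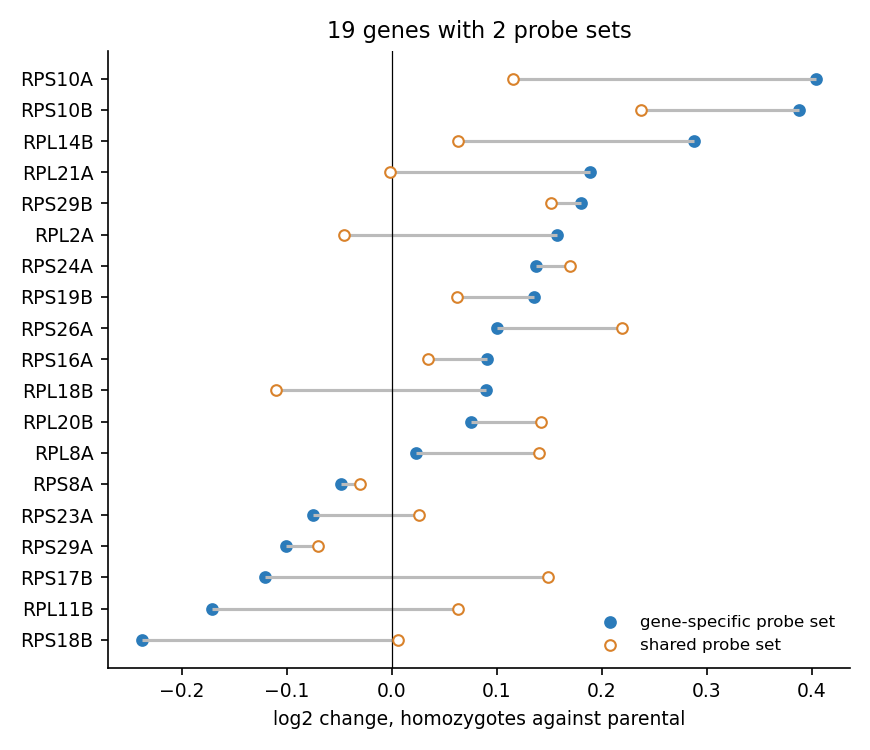
Log2 change in homozygotes against parental arrays for 19 genes with a gene-specific (filled) and a shared (open) probe set, ordered by the specific one. Shared probe sets lie between -0.11 and 0.24 and specific ones between -0.24 and 0.40, so the largest rises and falls are seen by specific probe sets.

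In the evolved strain against the parental strain 3 members rose and none fell, beside 3.20% and 5.21% of all genes tested (8.41% in either direction), and 19 members (14.8%) had an unadjusted p under 0.05, against 23.9% of all genes. Among these, RPS28B rose by 0.40 ± 0.11 (adjusted p = 0.0473) and RPP2B by 0.22 ± 0.05 (adjusted p = 0.0257). RPS28B was 2584 and 2578 on parental arrays, 3459 and 3345 on evolved arrays and 2721, 3070 and 3676 on homozygotes, so that the evolved arrays lay within the range of the homozygotes and above the parental arrays. None of the 3 calls held when each array was left out in turn. RPP2B was not called without parental array 2 (0.20, adjusted p = 0.0558).

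More members than that separated by array. On both evolved arrays 76 members (59.4%) were higher than on both parental arrays and 8 (6.25%) were lower, beside 23.8% and 28.0% of all genes. After quantile normalisation the counts were 42 and 23, or 32.8% and 18.0%, beside 25.8% and 25.0% of all genes under that scaling. After median centring they were 85 and 5, or 66.4% and 3.91%, beside 25.9% and 25.9% of all genes. The median change was 0.07 for members and -0.01 for all genes. The duplicate parental arrays serve in both comparisons, so these are not independent of the homozygote values. Side by side, the changes in homozygotes and in the evolved strain were 0.49 and 0.42 for RPS1A, 0.40 and 0.46 for RPS10A, -0.26 and 0.02 for RPS14B, and -0.16 and 0.00 for RPL17B.

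Homozygotes against the evolved strain gave 0 calls among members and among all genes (0.00%) with limma. At an unadjusted p under 0.05 there were 14 members (10.9%) and 929 of all genes (17.4%). With array weights 2 of 128 members were higher and 21 lower in homozygotes, beside 1549 of all 5352 genes called in either direction. All 8 homozygotes lay above both evolved arrays in 2 members and below them in 17, beside 9.25% and 12.8% of all genes. In simulated data this fit recovered 1.0% of genes changed by 0.25 and 65.0% of those changed by 0.5. The changed genes were drawn from all genes tested, whose median SE was 0.11, against 0.05 for members. These shares therefore do not show which differences could be detected in members. No member differed by more than 0.28.

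Among the 8 homozygotes ribosomal protein genes varied little. Their median SD was 0.07 in log2, beside 0.12 for all genes and 0.07 for the 426 other genes above the 90th percentile of signal. Of the 127 genes 105 were below the median SD of all genes. The most variable were RPS19A (SD 0.32), needed for maturation of the small subunit, RPL4B (0.25), RPS10A (0.22), RPL26B (0.20) and RPS1A (0.19), and all 5 were highest in homozygote 5. RPS19A read 1060, 1130 and 1848 on homozygotes, and also differed between the parental arrays (849 and 1202), so its change of 0.33 ± 0.21 was not called (adjusted p = 0.238). With the deposited scaling homozygote 5 held the highest value of 53 of the 127 genes, homozygote 8 of 32 and homozygote 3 of 21. The lowest value was then most often in homozygote 6 (48), homozygote 4 (34) or homozygote 2 (31).

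Other genes of the same pathway were taken from lists of translation genes. Of 24 regulators of ribosomal protein genes none rose and 7 fell in homozygotes with the deposited scaling, beside 13.2% and 18.0% of all genes, while 1 rose and 4 fell after median centring and 2 rose and 4 fell after quantile normalisation. CRF1, a corepressor that acts with Fhl1, read 201 and 168 on parental arrays, 86.6 and 110 on evolved arrays and 83.4, 92.5 and 108 on homozygotes. Its mean fell from 185 to 92.3 units in homozygotes (adjusted p = 6.9e-05), and it was also called in the evolved strain (log2 change -0.91, adjusted p = 0.00234). On the log2 scale TOD6, a repressor of ribosome biogenesis genes, fell by 0.59, UTP22 by 0.43 and the kinase gene TOR1 by 0.38. The activators were not called: RAP1 changed by 0.23 (adjusted p = 0.0644), FHL1 by -0.27 (adjusted p = 0.0814), IFH1 by -0.24 (adjusted p = 0.372) and SFP1 by 0.08 (adjusted p = 0.658).

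Of 23 chaperones and partners of ribosomal proteins 3 rose and 2 fell (0 and 4 after quantile normalisation), with SSB2 (0.22) and SSB1 (0.13), the ribosome-associated Hsp70 pair, higher, and SQT1 (-0.48) and ACL4 (-0.37), the dedicated chaperones of Rpl10 and Rpl4, lower. Of 14 elongation factor genes 5 rose and none fell (6 after median centring, 3 after quantile normalisation), the largest changes being in ANB1 (0.77), HEF3 (0.47), YEF3 (0.16) and TEF4 (0.14). Ribosome biogenesis factors had 5 rises and 5 falls among 92 (8 and 4 after median centring, 5 and 8 after quantile normalisation). The largest called changes were in MAK16 (-0.86), SPB4 (0.57), REI1 (-0.53) and UTP5 (-0.40). MAK16 lies on chromosome I, which was left out for members but not for these lists. The separate mitochondrial ribosome had 4 rises and 28 falls among 70 (4 and 21 after median centring, 5 and 26 after quantile normalisation), led by MRPL20 (-0.78), MRPL44 (-0.62), MRPS5 (-0.61) and MRPL49 (-0.59), beside a background of 13.2% and 18.0%. In the evolved strain 1 of 92 biogenesis factors rose (NOP8, 1.09%), 1 of 14 elongation factors (ANB1, 7.14%) and 1 of 23 chaperones (SSB2, 4.35%). Among the 70 mitochondrial ribosomal protein genes 19 fell (27.1%). The background over all genes in that comparison was 3.20% higher and 5.21% lower. SSB2 was not called after quantile normalisation.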

How the data were processed

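Total RNA of 12 cultures was hybridised as biotin-labelled cRNA, made from 100 ng per the labels' protocols. The authors deposited 1 linear intensity per probe set and array. MAS5 is named in the submitters' processing notes without version or role, and the scaling between arrays and the array's genome build are not given in the sources used here. Of 10928 probe sets 5498 had 1 S. cerevisiae gene (5449 genes) and 1746 a gene of S. pombe. They were named through the platform annotation, updated to the R64 gene table, from which chromosomes were read. A gene-specific probe set was preferred to a shared one, then the brighter. Background was the 90th percentile of the S. pombe probe sets of an array.

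Intensities were log2 transformed without a pseudocount and compared with limma 3.58.1 (R 4.3.3, moderated variances with a trend in mean signal, 1 mean per group over all 12 arrays, two-sided, Benjamini-Hochberg over 5352 genes at 0.05). Values after ± are SEs of changes unless marked SD. Subunits, pairs and spread are described without a test. Precision is limited by the number of arrays.

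The member genes, the other lists, the naming rule and the tests were chosen with earlier results of these data known. Named members are, per comparison, up to 8 largest called rises and falls, the 6 pairs with the largest and the 3 with the smallest A minus B shift, the 5 largest SDs among homozygotes, and RPL3, RPP0, RPL25, RPS31, RPL40A, RPL40B, RPS14A, RPS14B, RPL22A, RPL22B and RPP1. A gene pair among these is not reported here, though it is included in all counts. Other lists name up to 4 called genes, and RAP1, FHL1, IFH1 and SFP1 were added after their values were seen. On simulated data, with known changes in 200 of 5352 genes, the share recovered was recorded. Alternatives were the scaling, the filter, the probe set, the variance model, array weights, the samples in the fit, leaving out each array and a replicate block. Parental and evolved arrays share the numbers 1 and 2, but the deviations of same-numbered arrays from their group means correlated at -0.05 over genes, so the numbers were not taken to pair the cultures. No sequences are printed, since none of these genes' sequences was among the references used here.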

Additional observations from a re-analysis of the deposited data

Results flagged for a closer look

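In 2 of the 52 sets of 8 homozygotes examined (named genes and A minus B differences), an end value had a Dixon ratio (its gap to the nearest value over the whole range) above the critical value for 8 samples. Chance alone gives about 1 in 20. RPL17B had a ratio of 0.556, because homozygote 6 read 11.65 in log2 (3218 units) while the other homozygotes lay between 11.77 and 11.87. Its fall against the parental arrays was -0.16. For RPL11, A minus B had a ratio of 0.558, because homozygote 5 stood at 0.44 while the others lay between 0.00 and 0.19. The same array held the highest value of 53 of the 127 ribosomal protein genes and the highest ribosomal RNA signal among the homozygotes (11.89 in log2), and whether these are related was not tested.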

How the results depend on the processing

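Scaling, variance model and the weight of the parental arrays moved the counts of members most, and the cause was not tested. In homozygotes against parental arrays, the 20 rises became 8 under quantile normalisation, 12 without a variance trend and 0 with array weights, and ranged from 10 to 22 when each array was left out in turn. The 6 falls became 3 with median centring, 20 under quantile normalisation, 1 without a trend, 0 with array weights and 2 in a fit to the compared groups alone, and ranged from 2 to 8 with an array left out. The 14 large-subunit calls ranged from 6 to 15 and the 12 small-subunit calls from 5 to 13. In the evolved strain, the 3 rises became 1 under quantile normalisation, 0 without a trend, 0 with array weights and 0 in the fit to those groups alone, and ranged from 0 to 4 with an array left out. With the replicate number as a block the count was 2, RPS28B being lost (adjusted p = 0.0520), and that pairing is not borne out by the correlation of -0.05. Homozygotes against the evolved strain gave 0 calls, but 2 higher and 21 lower members with array weights. Over all genes array weights gave 325, 184 and 1549 calls in the 3 comparisons, against 1669, 450 and 0. The fit to compared groups alone gave 46 in the evolved strain and 1 against it, and leaving out an array gave 118 to 862 and 0 to 29. RPL22B ranged from -0.29 without parental array 2 to 0.052 without parental array 1 (adjusted p = 0.802), and the large minus small difference from -0.011 to 0.039 without these arrays. With an array left out the count of 26 separated pairs rose to at most 33. Leaving out an array cannot make separated groups overlap, so this count could not fall. Filters on low signal and the choice of probe set changed the count of members called in homozygotes by at most 1, from 26 to 25. The count of 25 came from averaging all probe sets of a gene, where the calls of RPL11B and RPS10A were lost.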

Other observations

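Ribosomal protein genes that lie next to each other on a chromosome did not always move together. Of the 9 neighbouring pairs among members, RPS14B and RPS22A on chromosome X changed by -0.26 and 0.16 in homozygotes against parental arrays, and RPS22A and its other neighbour RPL39 by 0.16 and 0.26. The remaining pairs ranged from RPL13A (-0.10) next to RPP1A (0.13) on chromosome IV to RPS9B (0.13) next to RPL21A (0.19) on chromosome II. RPL39 was called in this comparison and RPS14B too, while the other genes named here were not. Members lay on 15 chromosomes, with at most 18 on a single chromosome, and these neighbours were named after their values were seen.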
